A study of Homo sapiens with 6 samples.

Results

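The 53 genes described here encode proteins of the G2 phase and of mitosis, from the kinase that starts cell division to the motors that complete it. They were listed by gene symbol. All 53 were among the 46427 genes of the deposited gene table, and all 53 were among the 16557 genes with enough counts to be tested. The cells, MDA-MB-231/RR, are a radiation-resistant line derived from the human triple-negative breast cancer line MDA-MB-231. One group of 3 libraries came from cells co-treated with ortho-topolin riboside (oTR), a cytokinin-type adenosine derivative from plants, and melatonin, the pineal hormone. The other group of 3 libraries came from control cells of the same line. The question behind the series was whether both compounds together kill the cells beyond what either does alone and alter their metabolites and transcripts. Doses, exposure time and the treatment of the control cells were not given in the sources used here.

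A dividing cell accumulates cyclin B during G2, and CDK1 bound to it starts mitosis once CDC25 phosphatases have removed inhibitory phosphates. Polo and Aurora kinases then organise the spindle, the spindle assembly checkpoint delays anaphase until every kinetochore holds microtubules, and the anaphase-promoting complex with CDC20 marks cyclin B and securin for destruction. Most of these genes are transcribed late in the cell cycle, and their promoters commonly hold a cell cycle genes homology region (CHR), with the letters TTTGAA or TTTAAA, and CCAAT boxes bound by the factor NF-Y. The complexes known to act at CHR elements are DREAM, which represses in resting cells, and MMB with FOXM1, which activates in G2.

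The stretches before the transcription starts of 6 chosen genes show these elements in genes that moved in opposite directions. The first 4 genes were lower and the last 2 higher in co-treated cells. Each stretch is given 5′ to 3′ on the strand of the gene, from RefSeq on GRCh38.p14, and ends at the base before the start. Capitals mark the CHR letters (TTTGAA or TTTAAA) and the CCAAT box, each read on either strand. PLK1, the Polo kinase, is shown at chr16:23678769-23678888 on the plus strand, and KIF20A, a kinesin of the central spindle, at chr5:138178992-138179111 on the plus strand. CDC20, the activator of the anaphase-promoting complex, is shown at chr1:43358861-43358980 on the plus strand. The stretch of CCNB1, which encodes cyclin B1, lies at chr5:69167030-69167149 on the plus strand before transcript variant 1, which held 95.9% of the gene's control TPM. CDK1 is shown at chr10:60778358-60778477 on the plus strand before transcript variant 1, which held 81.5% of its control TPM. TOP2A, the topoisomerase that untangles sister chromatids, is shown at chr17:40417897-40418096 on the minus strand over 200 bases, and the others over 120 bases. The CHR letters of TOP2A begin 194 and 151 bases before the start, so a stretch of 120 bases would hold none.
PLK1: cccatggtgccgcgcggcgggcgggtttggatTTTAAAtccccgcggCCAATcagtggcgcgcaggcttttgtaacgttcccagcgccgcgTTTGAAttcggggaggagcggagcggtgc
KIF20A: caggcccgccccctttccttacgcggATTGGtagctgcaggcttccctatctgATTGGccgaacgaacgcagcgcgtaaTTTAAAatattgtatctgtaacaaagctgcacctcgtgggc
CDC20: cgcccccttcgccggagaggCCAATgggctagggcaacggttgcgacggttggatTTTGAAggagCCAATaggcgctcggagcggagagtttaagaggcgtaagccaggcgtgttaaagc
CCNB1: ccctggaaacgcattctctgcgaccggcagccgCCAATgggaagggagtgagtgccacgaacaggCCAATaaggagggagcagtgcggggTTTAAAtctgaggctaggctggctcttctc
CDK1: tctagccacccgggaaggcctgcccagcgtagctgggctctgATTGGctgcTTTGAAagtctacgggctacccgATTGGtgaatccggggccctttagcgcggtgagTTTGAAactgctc
TOP2A: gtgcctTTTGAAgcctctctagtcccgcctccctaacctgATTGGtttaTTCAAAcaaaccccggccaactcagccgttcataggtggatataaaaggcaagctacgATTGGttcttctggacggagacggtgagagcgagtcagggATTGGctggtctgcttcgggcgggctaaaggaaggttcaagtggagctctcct

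Of the 53 genes, 45 had a RefSeq window of 250 bases before to 50 bases after the start, 6 of them with several windows. TTTGAA occurred on either strand in 33 of the 45 genes (73.3%), against 18.2% of the 27305 genes in the promoter table. TTTAAA occurred in 16 (35.6%), against 14.5% of all genes, and either of these letters in 39 (86.7%), against 27.9%. CCAAT occurred in 38 (84.4%), against 39.7%, and 32 genes (71.1%) held both a CHR letter string and CCAAT, against 11.2%. The 49 TTTGAA matches lay at a median of 28 bases before the start and the 20 TTTAAA matches at a median of 65 bases. Of the TTTAAA matches, 7 lay within 60 bases before it. In all, 27 of the 45 genes (60%) had TTTGAA or TTTAAA within 60 bases before it, against 6.91% of all genes. The 89 CCAAT matches lay at a median of 85 bases before the start. E2F letters (TTTCCCGC, TTTCGCGC, TTTGCCGC or TTTGGCGC, either strand) were in 3 of the 45 genes (6.67%), against 3.99% of all genes. Of the 12026 genes tested here that had a window, 6.55% held them, about the same share. A list of DNA replication and G1/S genes, 43 of them with a window, held E2F letters in 48.8%, TTTGAA or TTTAAA in 14% and CCAAT in 62.8%. A match is a description of letters and not a bound site.

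**Figure D1:**
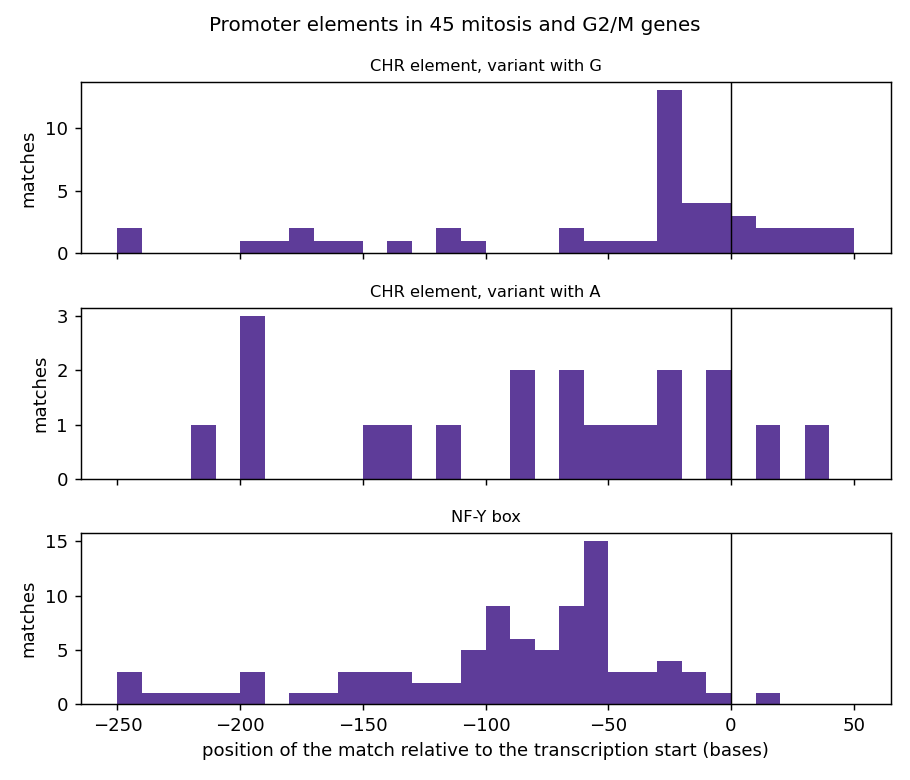
Position of each match of the 2 CHR variants (TTTGAA with G, TTTAAA with A) and of CCAAT (the NF-Y box) relative to the transcription start, in 10-base bins, over the promoter windows of 45 genes; the y axes count matches. The 49 TTTGAA matches pile up just before the start (median 28 bases) and the 89 CCAAT matches further away (median 85 bases).

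The elements were shared by genes that fell, genes that rose and genes that were not called. TTTGAA or TTTAAA was in 14 of 15 genes that fell and had a window, in 4 of 5 that rose and in 21 of 25 that were not called. Among the higher genes, CENPI held neither these letters nor CCAAT, and the TTTAAA match of CDC25B lay after the start. Within 60 bases before the start, the letters were in 13 of the 15 lower genes, 2 of the 5 higher genes and 12 of the 25 genes not called. These are small counts and no test was made of their difference.

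The 6 libraries held between 50569611 and 72204161 estimated counts in co-treated cells and between 56521572 and 72309015 in control cells. The lowest count of any of the 53 genes in any library was 659. The labels do not say whether libraries of 1 group derive from separate cultures. The p-values therefore refer to the spread among these 6 samples alone, part of which may be technical. Markers of the line were present. All 6 genes listed for it (VIM, CD44, EGFR, CAV1, AXL and MSN) were above 100 TPM in every library. VIM stood at 2380 to 2694 TPM in co-treated and 2037 to 2223 TPM in control cells, the hormone receptor gene PGR was listed at 0 and ESR1 stood at no more than 0.0139 TPM in every library. The leukocyte marker PTPRC and the fibroblast marker DCN were listed at 0 in all 6 libraries, whereas CD68, which tumour lines can also express, stood at 30.5 to 37.9 TPM. The co-treated libraries had relatively more counts on long genes: the median deviation of genes over 5000 bases was 0.03 to 0.09 (log2) in co-treated and -0.09 to -0.02 in control libraries. Genes under 40% GC deviated by 0.02 to 0.13 in co-treated and by -0.13 to -0.02 in control libraries.

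In co-treated cells 17 of the 53 genes (32.1%) were lower, against 17.1% of all genes tested, and 5 (9.43%) were higher, against 16.6% (edgeR quasi-likelihood test, Benjamini-Hochberg adjusted p under 0.05). The changes were small: the falls ran between 9.16% and 28.9% and the rises between 9.75% and 20.3%. The median log2 fold change of the 53 genes was -0.06, against 0.00 for all genes tested. In bulk RNA, fewer cells in G2 or mitosis and less of an mRNA per such cell cannot be told apart. The normalized CPM (counts scaled to the size of each library) of the co-treated libraries lay wholly below those of the controls for 23 genes (24.1% of all genes did so) and wholly above for 8 (23.3% of all genes), and the groups overlapped for 22. The groups thus lay apart for 31 of the 53 genes, against 47.4% of all genes. Every one of the 22 called genes was among those without overlap.

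The balance of directions depended on the scale. With library size as the only normalization, 11 of the 53 genes were lower and 7 higher, against 12.5% and 23% of all genes tested. The median of all genes moved to 0.06. On the scale log2(TPM + 1), tested with limma, 8 of the 53 were lower and 10 higher, against 8.09% and 27.3% of all genes. The median of all genes was 0.09, against 0.08 for the 53 genes. On log2(TPM + 0.1) the median of all genes was 0.12, again with 8 lower and 10 higher, against 8.08% and 27.1% of all genes. Without control replicate 1, 12 were lower and 8 higher, against 13.8% and 12.7% of all genes. The lower genes were shorter and richer in GC than the higher ones, with a median length of 2554 against 5016 bases and a median GC content of 48.3% against 39.1%. With a trend on length removed from each library, 15 were lower and 6 higher, against 17.7% and 15% of all genes. With a trend on GC content removed, an alternative chosen after seeing the data, 22 were lower and 4 higher. The shares of all genes were 19.3% and 17.5%. In each of the 20 alternatives tried, KIF20A, PLK1, CDC20 and CDCA8 stayed lower at an adjusted p under 0.05. CDK1, TOP2A and CDC25B stayed higher in each. Of the 20, 1 could not differ from the main fit (leaving the 20 most abundant genes out of the library sizes).

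**Figure D2:**
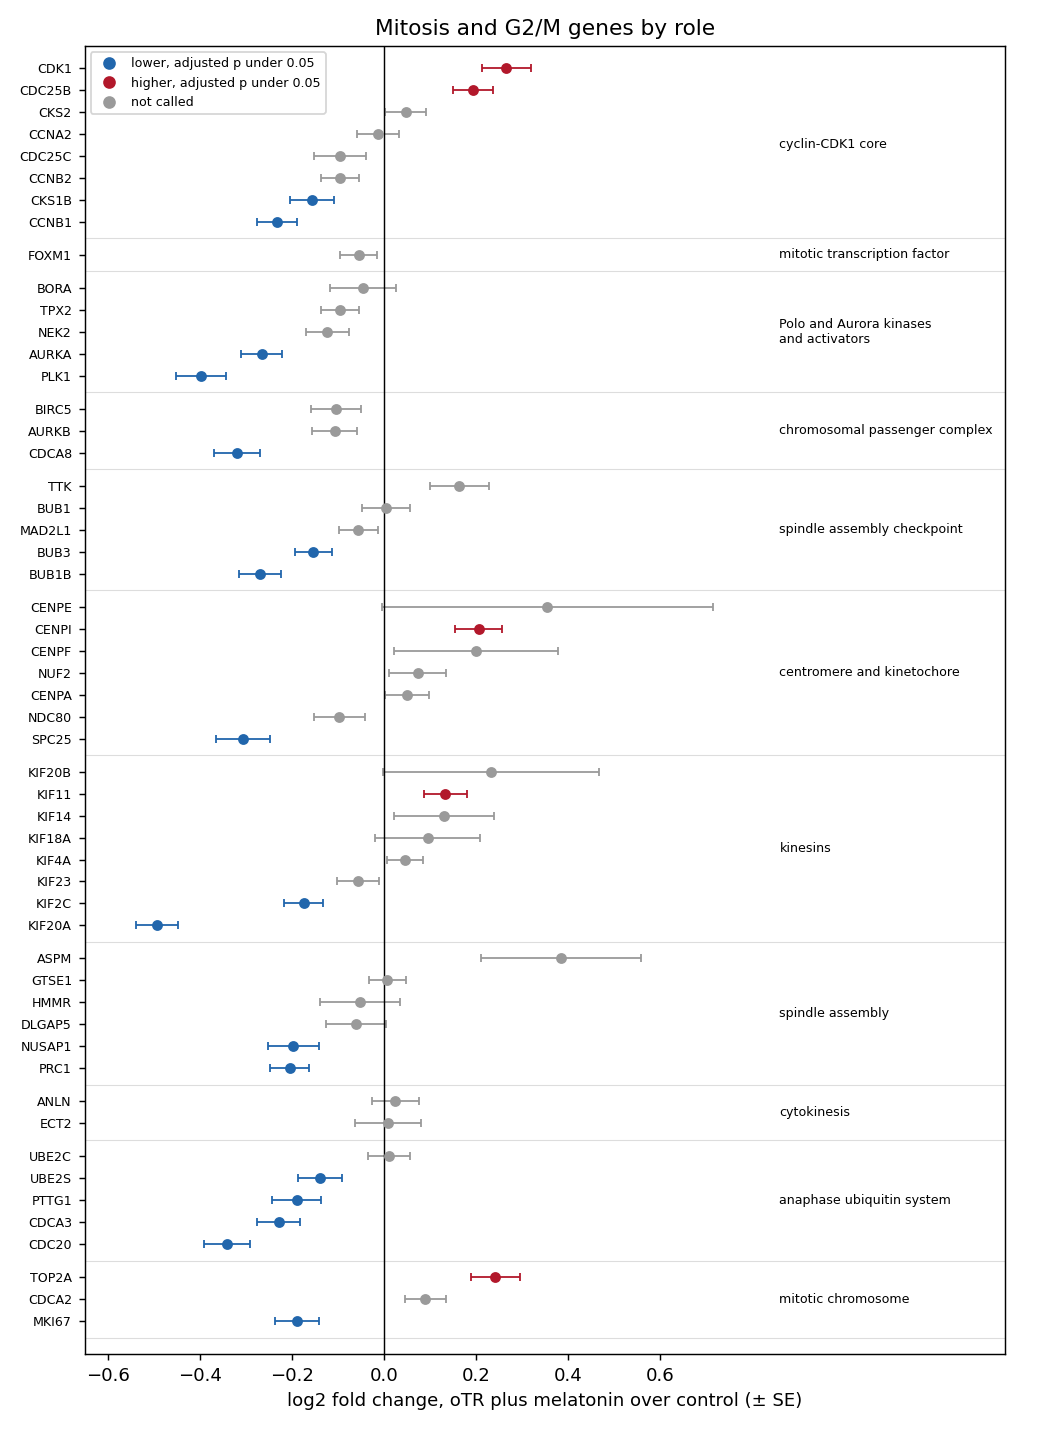
Log2 fold change of the 53 genes, oTR plus melatonin over control, with the standard error of the edgeR fit (n = 3 libraries per group), grouped by role along the y axis. The 17 lower genes are blue and the 5 higher genes red; ASPM, CENPE, CENPF and KIF20B lie to the right of 0 with wide errors and were not called.

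The core of the G2/M switch did not move as a unit. Of 8 genes for cyclins, CDK1 and their partners, 2 were lower, 2 higher and 4 not called. Over all genes tested, 17.1% were lower and 16.6% higher. These shares stand beside each count by role below, and the roles hold few genes. CDK1 (gene ID 983, chromosome 10, 60778331 to 60794852 on GRCh38 in the deposited transcript table), the kinase that drives entry into mitosis, had 238, 211 and 220 CPM in co-treated cells, against 185, 193 and 179 CPM in control cells. All 3 co-treated values lay above all 3 control values, and the log2 fold change was 0.27 ± 0.05 (SE; adjusted p = 0.0031, edgeR). It shrank to 0.14 once the GC trend was removed and stood at 0.40 on log2(TPM + 1). CCNB1 had 260, 251 and 267 CPM in co-treated cells, against 307, 296 and 310 CPM in control cells. Its mRNA thus moved opposite to that of its kinase, with no overlap between the groups and a log2 fold change of -0.23 ± 0.04 (SE; adjusted p = 0.00231, edgeR). On log2(TPM + 1) the fall of CCNB1 was 0.10 on the log2 scale and no longer passed (limma adjusted p = 0.0765). The call was lost on each of 3 TPM settings.

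CDC25B, the phosphatase known to activate cyclin B with CDK1 at the centrosome, had 154, 158 and 149 CPM in co-treated cells, against 134, 131 and 138 CPM in control cells. It was higher in every co-treated library, by 0.19 ± 0.04 on the log2 scale (SE; adjusted p = 0.00607, edgeR). Of its TPM, a mean of 81.8% in co-treated and 36.5% in control cells (SD 1.38 and 36.3) was assigned to variant X1, a predicted non-coding transcript. Its relative CDC25C had a log2 fold change of -0.09 and was not called, although its groups did not overlap. CKS1B, a small CDK-binding protein, had 112, 119 and 122 CPM in co-treated cells, against 129, 128 and 136 CPM in control cells. The groups were separate but close, at a log2 fold change of -0.16 ± 0.05 (SE; adjusted p = 0.0263, edgeR), and the call was lost in 10 of 20 alternatives. The fold change shrank to -0.0043 with the length trend removed, and leaving out control replicates 1 or 3 or co-treated replicates 1 or 2 gave adjusted p-values of 0.0536 to 0.0917 (edgeR). Processed copies of CKS1B share its sequence, and CKS1BP2 alone had 6.32 CPM in co-treated and 7.49 CPM in control cells, so its counts are uncertain. The other cyclins, CCNB2 (-0.09) and CCNA2 (-0.01), and CKS2 (0.05) were not called.

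FOXM1, the transcription factor that activates many of these genes in G2, had 239, 244 and 241 CPM in co-treated cells, against 247, 251 and 253 CPM in control cells. The groups did not overlap, but the log2 fold change of -0.05 ± 0.04 (SE) did not pass (edgeR adjusted p = 0.33). In TPM the order was the other way, at 158, 158 and 155 TPM in co-treated cells, against 149, 151 and 148 TPM in control cells. The direction thus depended on the scale.

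Among the Polo and Aurora kinases and their activators, 2 of 5 genes were lower and none was higher. PLK1 (gene ID 5347, chromosome 16, 23678889 to 23690367), which matures centrosomes and helps to activate CDK1, had 151, 168 and 170 CPM in co-treated cells, against 209, 211 and 223 CPM in control cells. The highest co-treated value was well under the lowest control value, and PLK1 fell by 0.40 ± 0.05 on the log2 scale (SE; adjusted p = 0.00034, edgeR). AURKA, the spindle pole kinase, had 177, 164 and 169 CPM in co-treated cells, against 203, 205 and 204 CPM in control cells. The 3 control values were nearly equal and all above the co-treated ones, at a log2 fold change of -0.27 ± 0.04 (SE; adjusted p = 0.00111, edgeR). The AURKA activator TPX2 (-0.10), the PLK1 activator BORA (-0.04) and the centrosomal kinase NEK2 (-0.12) were not called.

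The chromosomal passenger complex, which corrects wrong microtubule attachments, had 1 called gene of 3. CDCA8, which encodes its subunit borealin, had 89.2, 95.6 and 99.02 CPM in co-treated cells, against 114, 117 and 122 CPM in control cells. The groups were apart, with a log2 fold change of -0.32 ± 0.05 (SE; adjusted p = 0.000869, edgeR), which was -0.19 on log2(TPM + 1) with no filter. Its kinase AURKB (-0.11) and its subunit survivin, BIRC5 (-0.10), were not called.

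**Figure D3:**
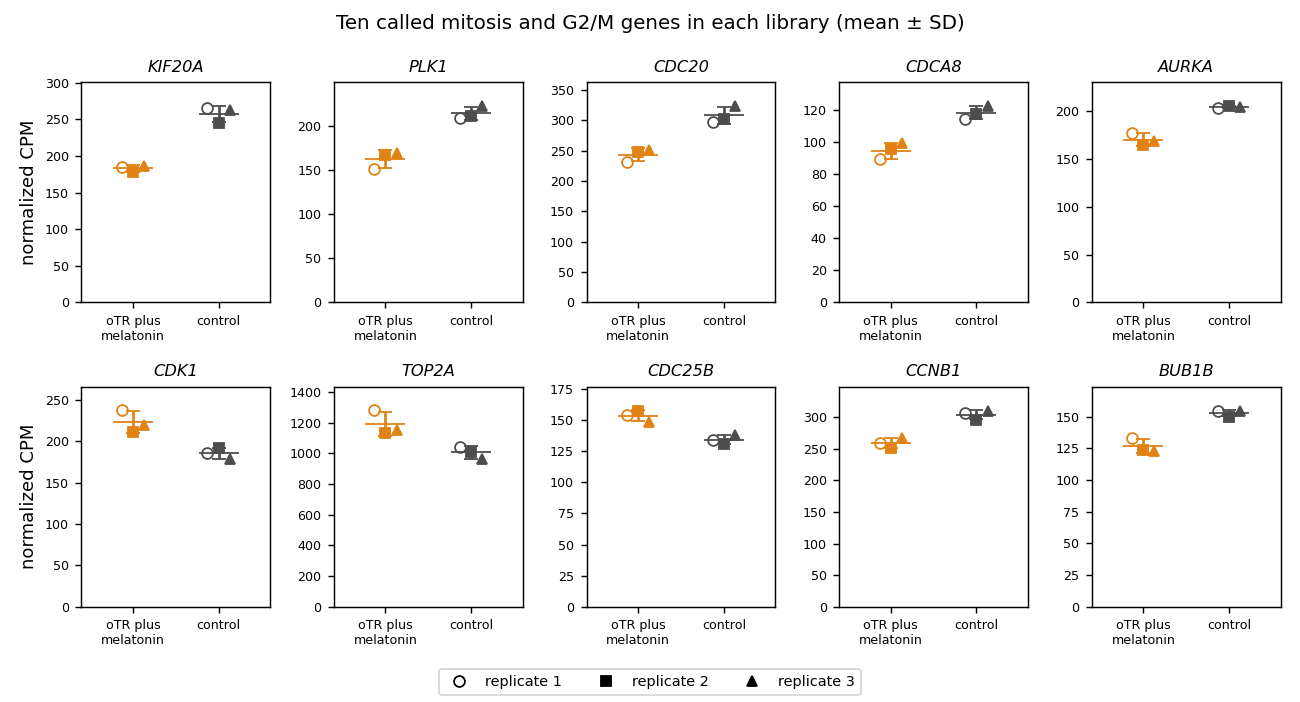
Normalized CPM of 10 called genes in each library, co-treated on the left and control on the right of each panel; bars are mean ± SD over 3 libraries and every y axis starts at 0. The groups do not overlap in any panel, and the CPM of KIF20A averaged 183 ± 4.37 in co-treated and 258 ± 10.7 in control cells.

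Of 5 checkpoint genes, 2 were lower. BUB1B, which encodes the checkpoint kinase-like protein BUBR1, had 134, 124 and 123 CPM in co-treated cells, against 154, 150 and 154 CPM in control cells. Its groups were separate, with a log2 fold change of -0.27 ± 0.05 (SE; adjusted p = 0.0013, edgeR), a call lost on each of 3 TPM settings. BUB3, which brings BUB1 and BUBR1 to kinetochores, had 243, 238 and 245 CPM in co-treated cells, against 270, 267 and 270 CPM in control cells. Its log2 fold change was -0.15 ± 0.04 (SE; adjusted p = 0.0131, edgeR), with no overlap, and the call was lost without control replicate 1 (adjusted p = 0.0519, and up to 0.0842 over the alternatives). The kinase BUB1 (0.01) and MAD2L1, which inhibits CDC20 (-0.06), were not called. TTK, the kinase that starts checkpoint signalling, had 68.9, 58.3 and 62.4 CPM in co-treated cells, against 56.7, 58.9 and 53.7 CPM in control cells. Its groups overlapped and the log2 fold change of 0.16 ± 0.06 (SE) did not pass (edgeR adjusted p = 0.0702), although DESeq2 called it (adjusted p = 0.0442).

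At centromeres and kinetochores 1 of 7 genes was lower and 1 higher. SPC25, a subunit of the NDC80 complex that binds microtubules, had 23.8, 22.7 and 23.7 CPM in co-treated cells, against 27.5, 30.2 and 29.2 CPM in control cells. The groups were apart, and SPC25 fell by 0.31 ± 0.06 on the log2 scale (SE; adjusted p = 0.00245, edgeR). Its partners NDC80 (-0.10) and NUF2 (0.07) were not called. CENPI, of the constitutive centromere complex, had 60.1, 56.2 and 55.0 CPM in co-treated cells, against 49.1, 51.1 and 48.2 CPM in control cells. The co-treated values were all higher, with a log2 fold change of 0.21 ± 0.05 (SE; adjusted p = 0.00988, edgeR), and not called with both libraries numbered 1 left out (adjusted p = 0.0686). CENPA, the centromeric histone H3, had a log2 fold change of 0.05 and was not called.

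Among 8 kinesins 2 were lower and 1 higher. KIF20A (gene ID 10112, chromosome 5, 138179112 to 138187723), which carries regulators of cytokinesis to the central spindle, had 185, 178 and 186 CPM in co-treated cells, against 265, 246 and 263 CPM in control cells. It showed the largest fall of the 53 genes, by 0.49 ± 0.05 on the log2 scale (SE; adjusted p = 4.33e-05, edgeR), and the groups were far apart. KIF2C, which depolymerises microtubules at kinetochores, had 162, 164 and 168 CPM in co-treated cells, against 184, 181 and 192 CPM in control cells. Its log2 fold change was -0.17 ± 0.04 (SE; adjusted p = 0.00992, edgeR) with no overlap. The call was lost on each of 3 TPM settings, with -0.04 on log2(TPM + 1). KIF11, the motor that pushes spindle poles apart, had 310.3, 293 and 293 CPM in co-treated cells, against 280, 277 and 260 CPM in control cells. The groups were close, at a log2 fold change of 0.13 ± 0.05 (SE; adjusted p = 0.0477, edgeR). The call of KIF11 was lost in 10 of 20 alternatives, among them every one that left out a library (adjusted p = 0.0678 to 0.173). Its log2 fold change shrank to 0.07 with the length trend removed and to 0.03 with the GC trend removed (edgeR adjusted p = 0.217 and 0.567). KIF23 (-0.06) and KIF4A (0.05), which act in the central spindle, were not called.

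Of 6 spindle assembly genes, 2 were lower. PRC1, which bundles antiparallel microtubules at the midzone, had 355, 345 and 344 CPM in co-treated cells, against 407, 387 and 409 CPM in control cells. The groups were apart, at a log2 fold change of -0.20 ± 0.04 (SE; adjusted p = 0.00401, edgeR), a call lost on 3 TPM settings. NUSAP1, which binds spindle microtubules near chromosomes, had 223, 194 and 203 CPM in co-treated cells, against 245, 233 and 233 CPM in control cells. The highest co-treated and lowest control values were near each other, and the log2 fold change was -0.20 ± 0.06 (SE; adjusted p = 0.0186, edgeR), lost without control replicate 1 or co-treated replicates 2 or 3 (adjusted p = 0.0786, 0.0754 and 0.0684). DLGAP5 (-0.06), HMMR (-0.05) and GTSE1 (0.01) were not called. Neither gene listed for cytokinesis was called, the scaffold ANLN (0.03) or ECT2, which activates RhoA (0.01).

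The anaphase ubiquitin group had the largest share of lower genes among these roles, 4 of 5, against 17.1% of all genes tested. The ranking rests on few genes, and the calls of PTTG1 and UBE2S were lost in 8 and 14 of 20 alternatives. CDC20 (gene ID 991, chromosome 1, 43358981 to 43363203) had 231, 248 and 251 CPM in co-treated cells, against 298, 303 and 324 CPM in control cells. No values overlapped, and CDC20 fell by 0.34 ± 0.05 on the log2 scale (SE; adjusted p = 0.000597, edgeR), and by 0.21 on log2(TPM + 1). CDCA3, an F-box-like mitotic protein, had 68.3, 70.9 and 69.8 CPM in co-treated cells, against 81.2, 78.5 and 85.0 CPM in control cells. It was lower in every co-treated library, at a log2 fold change of -0.23 ± 0.05 (SE; adjusted p = 0.00353, edgeR), lost on 3 TPM settings.

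PTTG1, the securin that holds separase inactive, had 125, 115 and 130 CPM in co-treated cells, against 134, 142 and 146 CPM in control cells. The gap was narrow, with a log2 fold change of -0.19 ± 0.05 (SE; adjusted p = 0.0198, edgeR). The call was lost in 8 of 20 alternatives, among them those without control replicates 2 or 3 or co-treated replicate 2 (adjusted p = 0.0553, 0.0712 and 0.0856). The fold change of PTTG1 shrank to -0.03 with the length trend removed (edgeR adjusted p = 0.723) and to -0.07 on log2(TPM + 1) (limma adjusted p = 0.378). UBE2S, which extends ubiquitin chains on targets of the complex, had 229, 239 and 228 CPM in co-treated cells, against 246, 252 and 268 CPM in control cells. It was the weakest of the falls, at a log2 fold change of -0.14 ± 0.05 (SE; adjusted p = 0.0424, edgeR), and was lost in 14 of 20 alternatives, among them each left-out library (adjusted p = 0.0507 to 0.159). UBE2S also has processed copies, of which UBE2SP1 had 5.37 CPM in co-treated and 6.98 CPM in control cells. UBE2C, which starts those chains, was not called (0.01).

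Of the 3 genes for mitotic chromosomes, TOP2A (gene ID 7153, chromosome 17, 40388525 to 40417902) had 1282, 1135 and 1154 CPM in co-treated cells, against 1044, 1011 and 964 CPM in control cells. All co-treated values were higher, with a log2 fold change of 0.24 ± 0.05 (SE; adjusted p = 0.00502, edgeR), which was 0.14 with the GC trend removed. The proliferation marker MKI67, which coats mitotic chromosomes, had 750.0, 681 and 690.0 CPM in co-treated cells, against 832, 781 and 804 CPM in control cells. It moved opposite to TOP2A, at a log2 fold change of -0.19 ± 0.05 (SE; adjusted p = 0.0116, edgeR), and was not called on 3 TPM settings, without control replicate 1 (adjusted p = 0.0591) or without co-treated replicate 3 (0.0524). CDCA2, which recruits a phosphatase to chromosomes late in mitosis, was not called (0.09).

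Of the 31 genes not called, 22 had a log2 fold change within 0.1 of 0, with 14 below and 17 above 0. A p above the threshold does not show that they did not differ.

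Several mRNAs differed more between replicate 1 and the other replicates of a group than between the group means. This pattern was chosen after the values were seen. CENPE, the kinetochore motor that brings chromosomes to the spindle equator, had 198, 96.7 and 88.2 CPM in co-treated cells, against 166, 67.5 and 66.1 CPM in control cells. Replicate 1 exceeded the mean of the other replicates in both groups, by a factor of 2.14 in co-treated and 2.49 in control cells. CENPF, a kinetochore protein of G2, had 423, 299 and 284 CPM in co-treated cells, against 385, 247 and 243 CPM in control cells. The kinesin KIF20B had 174, 110.0 and 105 CPM in co-treated cells, against 159, 87.7 and 85.2 CPM in control cells. ASPM, which focuses spindle poles, had 232, 172 and 156 CPM in co-treated cells, against 188, 125 and 116 CPM in control cells. In each of these genes every co-treated library lay above the control library of the same number, while the groups as a whole overlapped. The numbers were not shown to pair the libraries. KIF18A, which limits chromosome swings at the metaphase plate, had 68.4, 54.3 and 53.4 CPM in co-treated cells, against 65.3, 50.02 and 49.6 CPM in control cells. KIF14, a kinesin of the midbody, had 114, 88.7 and 87.5 CPM in co-treated cells, against 101, 87.1 and 76.6 CPM in control cells. KIF18A and KIF14 showed the same order with smaller steps.

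**Figure D4:**
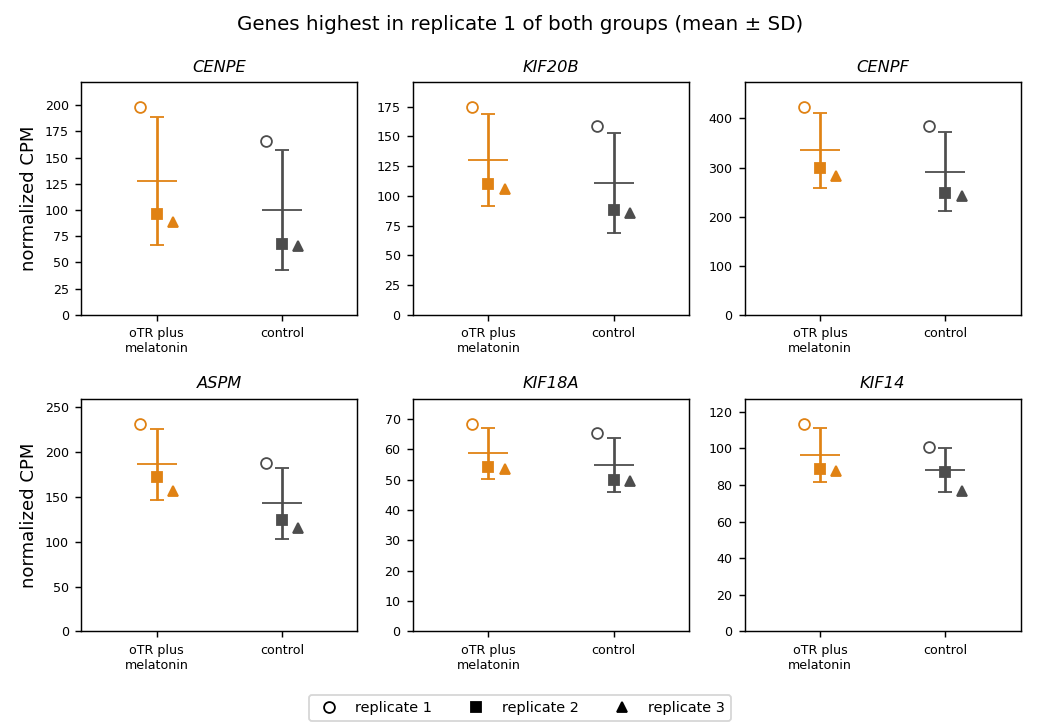
Normalized CPM of 6 genes in each library, co-treated on the left and control on the right of each panel; the marker shape gives the replicate number, bars are mean ± SD over 3 libraries, and y axes start at 0. Replicate 1 (open circle) is the highest of its group in every panel, for CENPE at 198 CPM in co-treated and 166 CPM in control cells.

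Replicate 1 reached at least 1.25 times the mean of the other libraries in both groups for 5 of the 53 genes (9.43%), CENPE, CENPF, KIF20B, ASPM and KIF18A, against 412 of all 16557 genes (2.49%). The 5 genes had GC contents of 34.2% to 40.8%, against a median of 48.4% for all genes tested. Their lengths ran between 3450 and 10660 bases, against a median of 3009 for all genes. MKI67, the longest of the 53 genes at 12130 bases, did not show the pattern, with factors of 1.09 in co-treated and 1.05 in control cells. The 412 genes as a whole had a median GC content of 46% and a median length of 2573 bases. What sets the libraries numbered 1 apart was not tested. The log2 fold changes of ASPM (0.39 ± 0.17), CENPE (0.36 ± 0.36), KIF20B (0.23 ± 0.23) and CENPF (0.20 ± 0.18, all SE) did not pass, at edgeR adjusted p-values of 0.113, 0.483, 0.48 and 0.424. With both libraries numbered 1 left out, a choice made after seeing the data, these 4 genes were called higher, at 0.45, 0.47, 0.31 and 0.25 (edgeR adjusted p = 0.00146, 0.000874, 0.00296 and 0.0107). Without control replicate 1 alone they were also called, at 0.63, 0.93, 0.58 and 0.45. Without co-treated replicate 1 alone none of the 4 was called, at 0.20 for ASPM, -0.11 for CENPE, -0.04 for KIF20B and -0.0026 for CENPF (edgeR adjusted p = 0.395, 0.837, 0.921 and 0.993), so 3 of the signs turned.

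Per length, the 53 genes ranged in TPM between 11.6 for BORA and 486 for TOP2A in co-treated cells, and between 10.8 for BORA and 409 for UBE2C in control cells. In control cells 30 of the 53 were over 100 TPM. TOP2A averaged 486 ± 40.6 TPM in co-treated and 375 ± 22.2 TPM in control cells, and UBE2C averaged 451 ± 8.32 TPM in co-treated and 409 ± 6.49 TPM in control cells (SD, n = 3 each). TOP2A had the highest mean TPM in co-treated cells, where the spread of TOP2A and UBE2C overlapped. In TPM, 10 of the 17 lower genes had co-treated values all below the controls and 7 overlapped, whereas all 5 higher genes had co-treated values all above. Over all 53 genes, the co-treated TPM lay wholly above the controls for 15, wholly below for 10, and overlapped for 28. The share of all genes that lay apart in TPM is not given here.

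Transcripts of a gene can shift in share without a change of its total. Of the 53 genes, 42 had at least 2 tested transcripts, and 5 of these (11.9%) changed in transcript usage, against 3.01% of the 9961 genes tested (limma diffSplice, Simes p per gene, Benjamini-Hochberg adjusted p under 0.05). In NUSAP1 the predicted transcript variant X13, of 3114 bases, held 56.1%, 51.0% and 51.1% of the gene's TPM in co-treated cells, against 3.79%, 38.2% and 0.445% in control cells. The share was above 50% in every co-treated library and varied widely among controls (diffSplice adjusted p = 4.2e-06). In CDC25B the variant X1 is a predicted transcript that RefSeq classes as non-coding. It held 81.6%, 80.6% and 83.3% in co-treated cells, against 78.4%, 17.7% and 13.5% in control cells (diffSplice adjusted p = 0.000395). Variant 1, a coding transcript, held 2.03%, 1.56% and 1.66% in co-treated cells, against 1.67%, 28.2% and 29.2% in control cells. Control replicate 1 lay close to the co-treated libraries, so the difference rested on the other control libraries. These shares are the authors' estimates of how reads divide among overlapping transcripts, and in NUSAP1 19 transcripts and in CDC25B 13 transcripts compete for them.

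**Figure D5:**
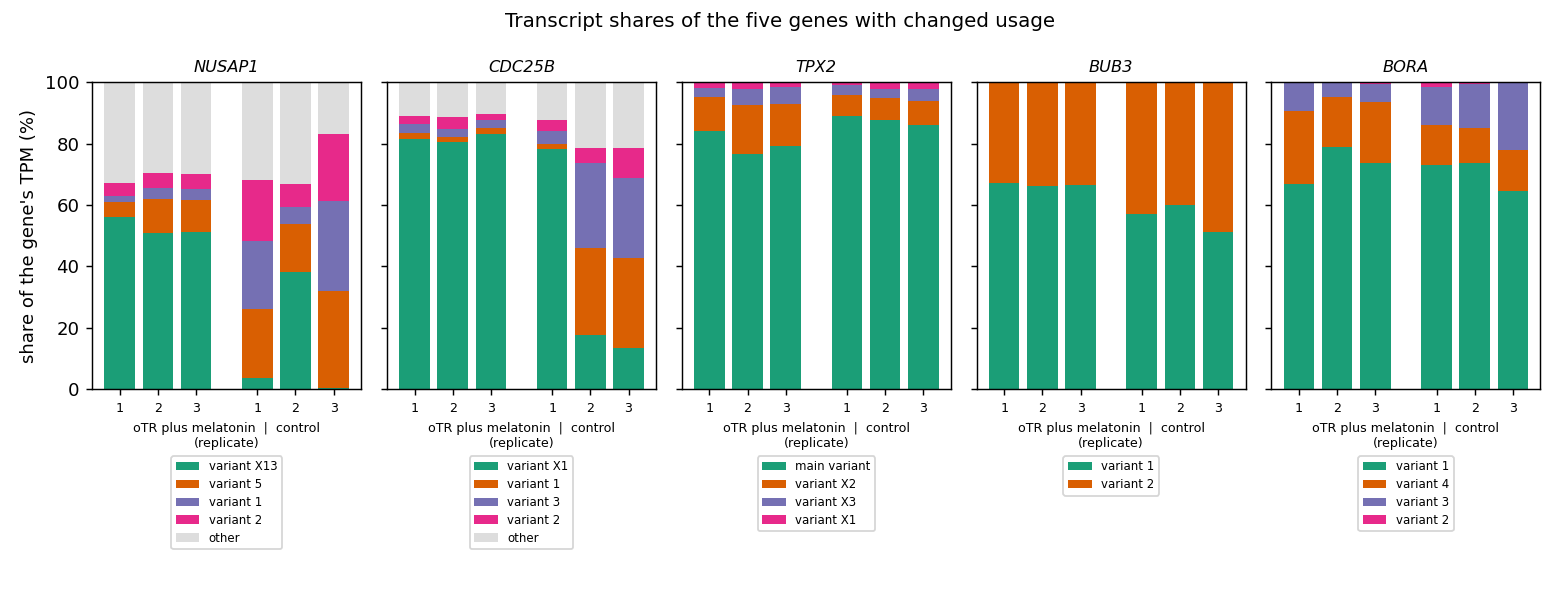
Share of each gene's TPM held by its transcripts (percent, y axis) in each library, co-treated on the left and control on the right of each panel, for the 5 genes called for transcript usage; transcripts beyond the leading 4 are pooled as other. Variant X13 of NUSAP1 holds 51.0% to 56.1% in co-treated libraries, and variant X1 of CDC25B holds 78.4% in control replicate 1, near the co-treated libraries and far from the other controls.

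BUB3 has a long transcript, variant 1 of 7703 bases, and a short one, variant 2 of 1537 bases. The long variant held 67.1%, 66.1% and 66.7% in co-treated cells, against 57.2%, 59.97% and 51.1% in control cells. The co-treated shares were almost equal and all above the control shares (diffSplice adjusted p = 0.0339). In TPX2 the main transcript held 84.1%, 76.5% and 79.1% in co-treated cells, against 88.9%, 87.7% and 86.2% in control cells. Variant X2 of TPX2 took up the difference, at 11.2%, 16.0% and 13.9% in co-treated cells, against 6.90%, 7.25% and 7.62% in control cells (diffSplice adjusted p = 0.0148). In BORA variant 3 held 9.39%, 4.58% and 6.06% in co-treated cells, against 12.2%, 14.3% and 22.02% in control cells (diffSplice adjusted p = 0.0402). Variant 4 of BORA was the higher in co-treated cells, at 23.9%, 16.4% and 19.7%, against 13.03%, 11.5% and 13.2% in control cells. NUSAP1 and CDC25B were called whichever of the 6 libraries was left out. BUB3 lost its call without control replicate 1 or any 1 co-treated replicate (diffSplice adjusted p = 0.0744 to 0.128). TPX2 lost it without control replicates 2 or 3 or co-treated replicates 2 or 3 (0.0549 to 0.0879), and BORA without any 1 library except co-treated replicate 1 (0.0524 to 0.189).

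Other genes of the same processes were read from lists that hold none of the 53. Beside each of their counts, 16.6% of all genes tested were higher and 17.1% lower. Among 21 genes that control entry into mitosis, 3 were higher (14.3%) and 1 lower (4.76%), with a median log2 fold change of -0.00. CDC25A, the phosphatase of the G1/S step and of mitotic entry, averaged 95.2 ± 0.338 CPM in co-treated and 118 ± 4.28 CPM in control cells (SD, n = 3 each), a log2 fold change of -0.31. The ubiquitin ligase subunit BTRC (0.20) and ARPP19 (0.25), an inhibitor of the phosphatase that opposes CDK1, were higher, as was the checkpoint kinase CHEK2 (0.23). WEE1, which inhibits CDK1 by phosphorylation, averaged 45.8 ± 2.45 CPM in co-treated and 43.8 ± 2.77 CPM in control cells and was not called (edgeR adjusted p = 0.444).

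Of 25 subunits and regulators of the DREAM, MMB and E2F complexes, 6 were higher (24%) and 8 lower (32%), with a median of 0.02. CDKN1A, the CDK inhibitor p21, had 56.8, 65.8 and 68.8 CPM in co-treated cells, against 32.5, 35.8 and 37.0 CPM in control cells. Its log2 fold change of 0.86 ± 0.07 (SE; adjusted p = 2.6e-05, edgeR) was larger in size than that of any of the 53 genes. MYBL2, the B-MYB subunit that turns the complex to activation, had 158, 167 and 166 CPM in co-treated cells, against 196, 188 and 200.2 CPM in control cells. It was lower without overlap, at a log2 fold change of -0.25 (edgeR adjusted p = 0.00176). E2F4, the repressor E2F of DREAM (-0.37), and RBBP4, a histone-binding subunit (-0.25), were lower, and E2F7 (0.30) and E2F1 (0.16) higher. LIN9, a subunit of both complexes, had a log2 fold change of 0.07 and was not called (edgeR adjusted p = 0.369).

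Of 16 subunits and helpers of the anaphase-promoting complex, 3 were higher (18.8%) and 5 lower (31.2%), with a median of -0.12. Of all genes tested, 16.6% were higher and 17.1% lower. ANAPC15, which helps to release the checkpoint complex, averaged 10.9 ± 1.27 CPM in co-treated and 18.7 ± 1.44 CPM in control cells (SD, n = 3 each), a log2 fold change of -0.78 ± 0.09 (SE; adjusted p = 0.000154, edgeR). The subunits CDC26 (-0.25) and ANAPC16 (0.26) moved in opposite directions, and the ubiquitin-conjugating enzyme UBE2D1 was higher (0.24). Of 34 other kinetochore and checkpoint genes, 10 were lower (29.4%) and 3 higher (8.82%), with a median of -0.07. TRIP13 (-0.36), which dismantles checkpoint complexes, and CENPM (-0.33) were lower, while the kinetochore scaffold KNL1 (0.37) and SKA1 (0.33) were higher. Of 35 other spindle and cytokinesis genes, 9 were lower (25.7%) and 7 higher (20%), with a median of -0.02. KIF18B (-0.34) and FAM83D (-0.32) were among the lower, and CKAP2L (0.28) and CKAP2 (0.27) among the higher. Of 23 cohesin, condensin and separase genes, 3 were lower (13%) and 3 higher (13%), with a median of 0.06. The condensin subunit NCAPD2 (-0.29) and the cohesin loader MAU2 (-0.15) were among the lower. The cohesin acetyltransferases ESCO1 (0.38) and ESCO2 (0.28) were among the higher.

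DNA replication and G1/S genes had a larger share of lower genes than the 53. Of these 52 genes, 26 (50%) were lower and 3 (5.77%) higher, against 17.1% and 16.6% of all genes, at a median of -0.11. The replicative helicase subunit MCM2 averaged 162 ± 11.9 CPM in co-treated and 227 ± 13.2 CPM in control cells, and UHRF1, which maintains DNA methylation, averaged 171 ± 4.25 CPM in co-treated and 234 ± 14.2 CPM in control cells (SD, n = 3 each). Their falls, by 0.48 and 0.45 on the log2 scale, were about as large as that of KIF20A. TIMELESS (0.21) and DSCC1 (0.19), which act at replication forks, were higher. The difference between the lists was not tested.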

How the data were processed

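RNA sequencing of total RNA gave 6 libraries, 3 per group, with groups and replicate numbers from the sample titles. Trimmomatic 0.38, HISAT2 2.1.0, HISAT, Bowtie2, SAMtools 1.9, StringTie 2.1.3b and the build GRCh38 are named, without roles, per the submitters' processing notes. Kit and strandedness were not given in the sources used here; reads of a gene and an antisense partner can therefore not be separated. Both deposited tables, of genes and of transcripts, were made by the authors with estimated counts, FPKM and TPM, per the file headers, and the transcript lengths in bases. The counts are estimates: all 384904 low transcript values equalled the deposited FPKM times length over a constant per library, rounded up (tolerance 0.06), and every one of the 46427 gene values was the sum over its transcripts. The deposited whole-number estimated counts were used as they stand. Columns starting with Con were taken as control and those starting with Mo as melatonin with oTR.

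Genes passing filterByExpr (minimum count 10) were tested across all 6 libraries with the edgeR 4.0.16 quasi-likelihood test in R 4.3.3, with relative log expression factors (the normalization named in the labels' protocols), Benjamini-Hochberg adjustment over 16557 genes and a threshold of 0.05. CPM carries the same factors; errors are SD over 3 libraries or SE of the fit. Transcript usage was tested on 65252 transcripts with voom and diffSplice of limma 3.58.1. Alternatives included DESeq2 1.42.0, limma on log2(TPM + 1) and log2(TPM + 0.1), other factors and filters, a length trend, a replicate block and each library left out. The scripts were tested on simulated data. The 53 genes and the pathway lists were chosen with earlier results of these data known. Every called gene is named with its 6 values, the others by fold change. From each pathway list, the text names up to 2 called genes with the largest rises and 2 with the largest falls at 1 CPM or more, plus CDKN1A, MYBL2, E2F1, LIN9 and WEE1. GC content is that of the longest GENCODE transcript and was found for 87.8% of tested genes and for 53 of the 53. No library pair of a group matched within counting noise (chi-square over its degrees of freedom, 11.6 to 19.5). Promoter windows and their sequences came from RefSeq, matched by gene ID. Figures were drawn with matplotlib 3.10.9.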

Additional observations from a re-analysis of the deposited data

How the results depend on the processing

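No called gene reversed its sign in the 20 alternatives; 15 of the 22 called genes lost their call in at least 1, and 17 of the 31 others gained one in at least 1. TMM factors, voom and a minimum count of 30 gave 17 lower and 5 higher, DESeq2 17 and 6, and no count filter 16 and 4. In these settings 10.1% (no count filter) to 19.8% (minimum count 30) of all genes were lower, and 9.36% to 19.3% higher. Leaving the 20 most abundant genes out of the library sizes gave the main result again. It could not do otherwise, since relative log expression factors offset the library size. This is 1 of the 20 alternatives and adds no support. The count of lower genes was 11 under library size alone, 8 on log2(TPM + 1), 8 on log2(TPM + 0.1) and 5 on log2(TPM + 1) without a filter. On the 3 TPM settings 10, 10 and 8 genes were higher. Of all genes tested, 12.5%, 8.09%, 8.08% and 3.73% were lower in the same order, and 27.3%, 27.1% and 12.4% were higher on TPM. The median log2 fold change was 0.0033 under library size alone, 0.0761, 0.0766 and 0.0761 in the 3 TPM settings and -0.0848 with the GC trend removed; the cause was not tested. Leaving out each library in turn gave 12 to 16 lower and 4 to 8 higher genes and medians of -0.0767 to -0.0426. Of all genes, 12.9% to 14.8% were then lower and 12.4% to 14.1% higher. Without control replicate 1 it was 12 lower and 8 higher, against 13.8% and 12.7% of all genes. With both libraries numbered 1 left out, chosen after seeing the data, 14 were lower and 7 higher, against 12.6% and 11.7% of all genes. The replicate numbers were not shown to pair the libraries: deviations of same-numbered libraries correlated at 0.153, 0.0332 and 0.0473, and not every library correlated best with its own number. A fit with the replicate block called 18 lower and 11 higher genes, against 19.3% and 19.2% of all genes. ASPM, CENPE, KIF20B, CENPF and KIF14 were among the higher ones. The block called 3 genes for transcript usage, against 2.81% of all genes. Leaving out single libraries gave 3 to 5 for usage, against 2.21% to 3.38% of all genes. With 3 libraries a group, changes near 10% lie at the limit of what was called.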
